A study of Homo sapiens with 12 samples.

Results

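The leukocyte immunoglobulin-like receptors (LILR) are cell surface proteins with immunoglobulin domains, encoded side by side in the leukocyte receptor complex on chromosome 19. The described set comprised LILRA1, LILRA2, LILRA5, LILRA6, LILRB1, LILRB2, LILRB3 and LILRB4. These are 8 of the 13 genes named LILR among the 58735 rows of the count table, with 1 row each. They were chosen with earlier results of these data known. All 8 passed the filter on low counts and were among the 15060 genes tested. LILRA4, LILRB5 and LILRP2, outside the set, did not pass it. LILRA members carry a short cytoplasmic tail and signal through FCER1G, the Fc receptor gamma chain, whose activation motif is phosphorylated by Src kinases and recruits SYK. LILRB members carry inhibitory motifs (ITIMs) in a long tail, which recruit the phosphatases PTPN6 (SHP-1) and PTPN11 (SHP-2) and dampen activation. Most are found on monocytes, macrophages, dendritic cells or granulocytes, several bind HLA class I molecules, and LILRB4 is known as a surface marker of monocytic acute myeloid leukemia.

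RNA came from OCI-AML2, an established human acute myeloid leukemia line. All cells had been infected with a lentivirus carrying a guide RNA, either sgLuc, the control guide, or sgUTX_2 or sgUTX_4, labelled as knocking out KDM6A. KDM6A encodes UTX, a histone demethylase. For 6 days, cells of each guide received DMSO, the solvent, or SGC0946 at 1 µM, which blocks DOT1L, a histone methyltransferase, and each of the 6 combinations had 2 libraries. The labels did not say whether libraries of a group were separate cultures, or whether a guide stood for 1 clone or a mixed population, so a p-value here covers the spread between libraries, which may be technical.

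Total counts per library lay between 15480493 and 23262141. KDM6A itself, in CPM (read counts divided by the scaled library size), lay between 27.9 and 35.1 with sgLuc, between 14.4 and 15.9 with sgUTX_2 and between 43.2 and 49.4 with sgUTX_4. Its RNA was thus lower than in the control with one guide and higher with the other, and RNA does not show whether the protein was lost. Groups are therefore named by their guide, and "sgUTX cells" means both guides together. Monocyte and macrophage markers (14 genes) summed to 700 to 766 CPM in sgLuc cells with DMSO and to 10800 to 11000 CPM with SGC0946. The corresponding sums were 386 to 711 and 3130 to 4990 CPM in sgUTX cells. With SGC0946 most of these sums came from LYZ alone, with means of 9350 CPM in sgLuc and 3840 CPM in sgUTX cells. Summed markers of other cells lay between 0.358 and 12.3 CPM for T cells, 2.41 and 12.3 for B cells, 47 and 111 for NK cells, 33.3 and 73.5 for plasmacytoid dendritic cells, 5.78 and 21.2 for megakaryocytes and 2.24 and 15.2 for adherent cells. Those of red cells lay at or below 0.388 CPM. NCAM1 made up most of the NK sums, and IL3RA and TCF4 most of the plasmacytoid dendritic sums. Their means in sgLuc cells with DMSO were 103.8, 45.4 and 26.2 CPM. MS4A1 of B cells, HBB and HBA1 of red cells and PF4 and PPBP of platelets were at 0 counts in all 12 libraries. Neutrophil markers (15 genes) summed to 2860 to 2880 CPM in sgLuc cells with DMSO and 3760 to 3850 with SGC0946, and to 1760 to 2650 and 2950 to 3900 CPM in sgUTX cells. AZU1 was the largest part of these sums. Its means with DMSO and SGC0946 were 2227 and 1550 CPM in sgLuc cells and 1480 and 1968 CPM in sgUTX cells.

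LILR genes arose by duplication, and LILRB3 and LILRA6 are the most alike of the 8, with 93.9% identity over 1431 aligned coding bases. The median over the 28 pairs was 80.35%. The start of their coding sequences is shown because a read from such a stretch can be assigned to either gene. Both were read from GENCODE 29 transcripts (ENST00000346401.10 for LILRB3 and ENST00000396365.6 for LILRA6), bases 1 to 120 of the coding sequence, with the 6 differing positions in capitals (G6C, G10A, A16G, T33A, G59A and A61G, LILRB3 base first, counted from the A of the start codon).
LILRB3: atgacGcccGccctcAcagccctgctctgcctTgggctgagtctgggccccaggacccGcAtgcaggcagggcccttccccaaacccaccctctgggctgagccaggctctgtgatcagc
LILRA6: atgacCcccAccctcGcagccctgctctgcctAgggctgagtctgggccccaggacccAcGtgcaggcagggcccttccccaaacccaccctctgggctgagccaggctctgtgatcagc
Of all 50-base windows of the LILRA6 transcript, 33.5% occurred exactly in a LILRB3 transcript, and at 150 bases, the length of 1 read, 5.7% still did. The reverse shares for LILRB3 were 22.0% and 3.7%. LILRB1 and LILRB2 came next, with 10.6% and 9.3% of their 50-base windows in the other gene and at most 0.8% at 150 bases. LILRA5 and LILRB4 shared under 1% of windows with any other member at 50 bases. How reads that match several genes were counted is not given in the sources used here, so the split between LILRB3 and LILRA6 is uncertain. Separately, LILRA2 shared 15.8% of its exonic bases with AC245036.5, LILRB4 13.0% with VN1R105P and LILRA5 4.8% with AC245884.11, each on the same strand. Of the 150-base windows of the LILRA2 transcript, 16.3% occurred exactly in AC245036.5. LILRB1 shared 7.1% of its exonic bases with LILRB1-AS1 on the other strand, which had no count in any library.

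**Figure D1:**
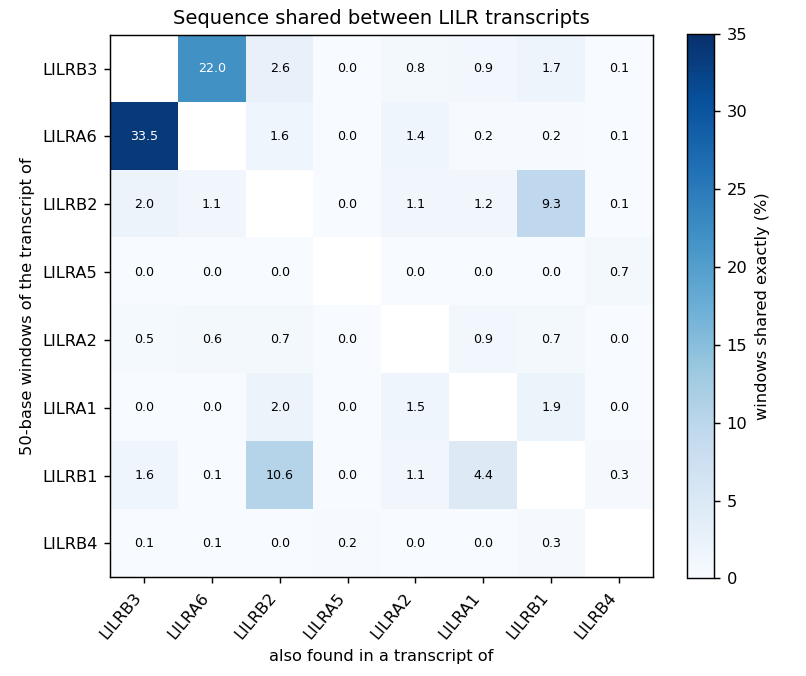
Share of the 50-base windows of each LILR transcript (rows) that occur letter for letter in a transcript of another member (columns), in percent. LILRA6 and LILRB3 share the most (33.5% and 22.0%), followed by LILRB1 and LILRB2 (10.6% and 9.3%).

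Levels were first compared between genes per kilobase of exonic sequence, in sgLuc cells with DMSO. LILRA2 had the highest level at 48.5 CPM per kilobase, ahead of LILRB4 at 17.3, LILRA1 at 8.12 and LILRB1 at 3.62. LILRB2 followed at 0.633, and LILRB3, LILRA6 and LILRA5 lay at 0.126, 0.123 and 0.0961 CPM per kilobase. The family therefore fell into 4 genes with 232 to 4121 reads per library in these cells and 4 with 1 to 52. With SGC0946 the order in sgLuc cells became LILRA2 (53.9 CPM per kilobase), LILRA5 (35.9), LILRB2 (17.1), LILRA1 (15.5), LILRB4 (9.55), LILRB3 (6.63), LILRB1 (5.41) and LILRA6 (5.38).

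**Figure D2:**
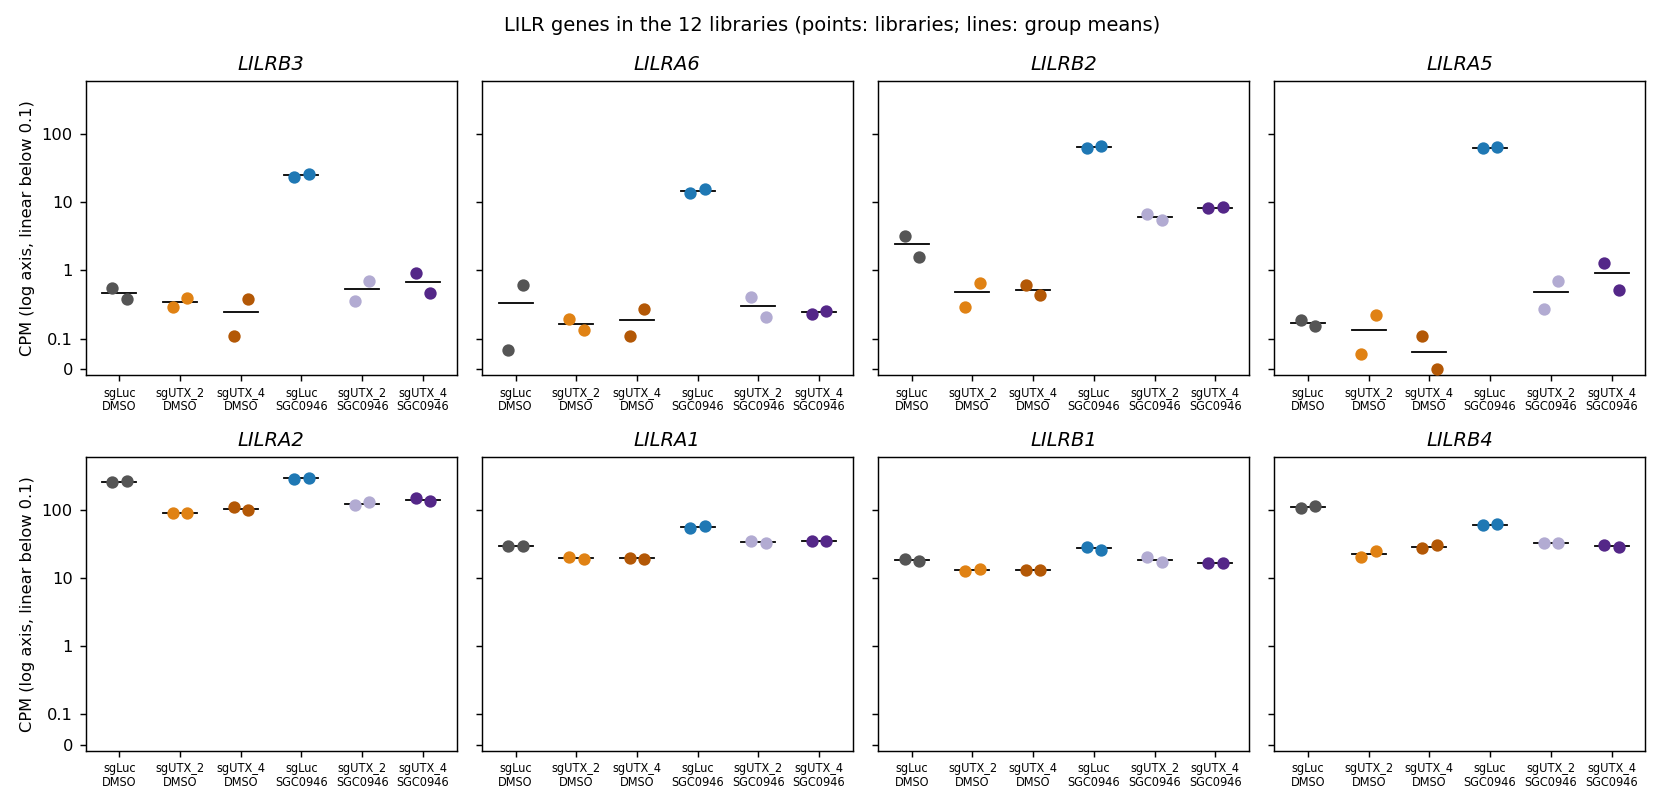
Level of each LILR gene in each of the 12 libraries in CPM, on a log axis that is linear below 0.1. Points are libraries and lines are group means, and the upper row holds the 4 genes that rose at least 26.3-fold with SGC0946 in sgLuc cells while the lower row holds the 4 that changed by less than 2-fold.

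Among the activating members LILRA2, a receptor that senses immunoglobulins cleaved by microbial proteases, had 256.4 and 262.5 CPM in sgLuc cells with DMSO. In sgUTX cells with DMSO it had 90.5 and 89.0 CPM with sgUTX_2 and 108.2 and 99.9 CPM with sgUTX_4. All 4 sgUTX libraries lay below both controls, a log2 fold change of -1.42 (standard error 0.08, adjusted p = 8.16e-12). SGC0946 brought it to 283.8 and 292.9 CPM in sgLuc cells, above both DMSO libraries, but the log2 fold change of 0.15 did not pass the test (adjusted p = 0.198, 95% interval -0.07 to 0.37). Fitting only the groups compared gave an adjusted p of 0.00505 with a log2 fold change of 0.16, and adjusted p-values over all alternatives lay between 0.00505 and 0.432. In sgUTX cells SGC0946 raised it to 116.1, 128.0, 147.9 and 134.6 CPM, by 0.44 (adjusted p = 4.32e-05), which still left all 4 libraries below the untreated control. In bulk RNA, fewer cells that express a gene and less of its RNA per cell cannot be told apart, here or for the other members.

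LILRA1, an activating receptor close to LILRA2 on the chromosome, had 29.1 and 29.2 CPM in sgLuc cells with DMSO. The 4 sgUTX libraries with DMSO lay lower, at 20.5, 18.8, 19.6 and 19.1 CPM (log2 fold change -0.58, adjusted p = 1.81e-06). With SGC0946 sgLuc cells reached 53.5 and 57.9 CPM and sgUTX cells 34.5, 32.2, 34.7 and 34.7 CPM. The rise was 0.94 in sgLuc cells (adjusted p = 1.34e-08) and 0.80 in sgUTX cells (adjusted p = 1.42e-09). The 4 conditions did not overlap, in the order sgLuc with SGC0946, sgUTX with SGC0946, sgLuc with DMSO and sgUTX with DMSO. The responses of sgUTX and sgLuc cells differed by -0.13, with a 95% interval of -0.39 to 0.12 (adjusted p = 0.389).

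LILRA5, an activating receptor of monocytes and neutrophils, was near absent in every DMSO library. It had 3 and 2 counts in sgLuc cells, 1 and 5 with sgUTX_2 and 2 and 0 with sgUTX_4. SGC0946 brought 1030 and 1160 counts in sgLuc cells, 62.2 and 64.3 CPM. In sgUTX cells the same treatment gave 6, 17, 23 and 10 counts, 0.267 to 1.30 CPM, above all DMSO libraries but far below the treated control. The log2 fold change in sgLuc cells was 8.48 (standard error 0.39, adjusted p = 4.78e-12). The pooled level there went from 0.171 CPM, with an exact 95% Poisson interval of 0.0553 to 0.400 for counting error only, to 63.3 CPM, so the size of the fold rests on 5 counts. In sgUTX cells it was 2.66 (adjusted p = 0.00145), and the responses differed by -5.81 (standard error 1.22, adjusted p = 0.00118). Leaving out single libraries moved the difference of the responses between -6.24 and -4.97.

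LILRA6, whose extracellular part is nearly that of LILRB3 and whose copy number is known to vary between people, behaved alike. It had 1 and 8 counts in sgLuc cells with DMSO and 2 to 5 in the 4 sgUTX libraries. With SGC0946 the sgLuc libraries held 229 and 278 counts, 13.8 and 15.4 CPM, while the sgUTX libraries held 9, 5, 4 and 5 counts. Only the treated control thus stood apart, and the other 10 libraries lay between 1 and 9 counts. LILRA6 passed the filter on low counts only through the treated sgLuc libraries, so a difference from them was set in advance by the filter. The log2 fold change with SGC0946 was 5.53 in sgLuc cells (adjusted p = 2.91e-10) and 0.62 in sgUTX cells, which did not pass (adjusted p = 0.395, 95% interval -0.57 to 1.82). The responses differed by -4.91 (adjusted p = 4.03e-05). Both values rest on the 1 and 8 counts of the untreated control, and with single libraries left out the rise in sgLuc cells lay between 4.58 and 7.73 and the difference between -7.11 and -3.96. In DMSO its log2 fold change of -0.80 between sgUTX and sgLuc cells did not pass (adjusted p = 0.317). Without the first sgLuc DMSO library, which held the 1 count, that value was -1.75 (adjusted p = 0.0288), and without the second it was 1.41, while adjusted p-values over all alternatives lay between 0.0288 and 0.502.

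Among the inhibitory members, LILRB3, a receptor of granulocytes and monocytes, followed LILRA6. It had 9 and 5 counts in sgLuc cells with DMSO, 6, 9, 2 and 7 in sgUTX cells with DMSO, 394 and 465 in sgLuc cells with SGC0946 (23.8 and 25.8 CPM) and 8, 17, 16 and 9 in sgUTX cells with SGC0946. The treated control alone was high, and the ranges of sgUTX cells with and without SGC0946 overlapped. SGC0946 raised it by 5.68 on the log2 scale in sgLuc cells (adjusted p = 3.41e-12) and by 0.98 in sgUTX cells (adjusted p = 0.0473), a call lost when 9 of the 12 single libraries were left out in turn. The responses differed by -4.70 (adjusted p = 1.75e-06). Because reads of LILRB3 and LILRA6 may be exchanged, their counts were also summed. The sum rose by 5.63 in sgLuc cells and by 0.86 in sgUTX cells (adjusted p = 0.0235), and the responses differed by -4.77 (adjusted p = 2.89e-08).

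LILRB2, a receptor for classical HLA class I and HLA-G, changed in both kinds of cells. It had 52 and 21 counts in sgLuc cells with DMSO (3.24 and 1.59 CPM) and 6, 15, 11 and 8 counts in sgUTX cells with DMSO (0.295 to 0.658 CPM), with no overlap. SGC0946 brought 63.1 and 67.4 CPM in sgLuc cells, and 6.82, 5.46, 8.22 and 8.44 CPM in sgUTX cells. Treated sgUTX cells thus lay above the untreated control and well below the treated one. The rise was 4.72 in sgLuc cells (adjusted p = 2.6e-12) and 3.82 in sgUTX cells (adjusted p = 1.75e-10). The responses differed by -0.89 with a 95% interval of -1.85 to 0.06, which did not pass (edgeR, unadjusted p = 0.044, adjusted p = 0.105). DESeq2 (adjusted p = 0.041), edgeR without the filter (-0.95, adjusted p = 0.0233) and edgeR with 6 groups (-0.90, adjusted p = 0.0465) called the response lower in sgUTX cells. With single libraries left out the difference lay between -1.53 and -0.51. Against sgLuc cells, sgUTX cells had a log2 fold change of -2.29 with DMSO and of -3.19 with SGC0946.

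LILRB1, a receptor for HLA class I on many leukocytes, moved in the directions of LILRA1 by smaller amounts. It had 18.7 and 17.6 CPM in sgLuc cells with DMSO and 12.6, 13.4, 13.1 and 13.2 CPM in sgUTX cells with DMSO. With SGC0946 it had 28.6 and 25.6 CPM in sgLuc cells and 20.3, 17.0, 16.8 and 16.6 CPM in sgUTX cells, a range that overlapped the untreated control. The log2 fold changes were -0.47 for sgUTX against sgLuc with DMSO (adjusted p = 0.000627), 0.58 for SGC0946 in sgLuc cells and 0.44 in sgUTX cells. Scaling by library size alone gave -0.20 for the first of these (adjusted p = 0.127, the highest of all alternatives, with 0.000221 the lowest).

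LILRB4, which recruits SHP-2 and binds ApoE and fibronectin, was the member that fell with SGC0946 in the control. It had 106.3 and 112.0 CPM in sgLuc cells with DMSO and 59.5 and 61.4 CPM with SGC0946, a log2 fold change of -0.85 (adjusted p = 6.3e-06). In sgUTX cells with DMSO it had 20.5, 25.1, 27.1 and 30.4 CPM, below every sgLuc library of either treatment. With SGC0946 sgUTX cells had 32.8, 33.1, 30.1 and 28.1 CPM, a range that overlapped the DMSO libraries (0.27, adjusted p = 0.0246). The latter call was lost without any single sgUTX_2 library of either treatment. The difference of the responses was 1.12 (standard error 0.15, adjusted p = 9e-06) and lay between 1.03 and 1.21 when single libraries were left out.

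Read by comparison, 5 of the 8 members were lower in sgUTX than in sgLuc cells with DMSO and none was higher, also at an unadjusted p under 0.05 and by DESeq2. Of all genes tested, 32.3% were lower, and 61% changed in either direction. The 5 were LILRA1, LILRA2, LILRB1, LILRB2 and LILRB4, and the other 3 held at most 9 counts in any of these libraries. The members' median log2 fold change was -0.77, beside -0.01 over all genes. SGC0946 raised 6 members in sgLuc cells, where 24.7% of all genes rose, and lowered 1, where 24.2% fell. The median of the members was 2.83. In sgUTX cells SGC0946 raised 7 and lowered none, where 17.4% of all genes rose, and the median was 0.71. With SGC0946 all 8 were lower in sgUTX than in sgLuc cells, where 29.3% of all genes were lower. The members' log2 fold changes went from -6.55 (LILRA5) to -0.61 (LILRB1). LILRA6 passed the filter on low counts through the treated sgLuc libraries in which it was high, and a gene that passes in this way had to differ there. The calls of LILRA6 for SGC0946 in sgLuc cells and for the difference of the responses carry the same limit. The difference of the responses passed for 3 lower members (LILRA5, LILRA6 and LILRB3), where 16.5% of all genes passed lower, and for 1 higher (LILRB4), where 18.3% passed higher. The comparisons share libraries and are not independent of each other.

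**Figure D3:**
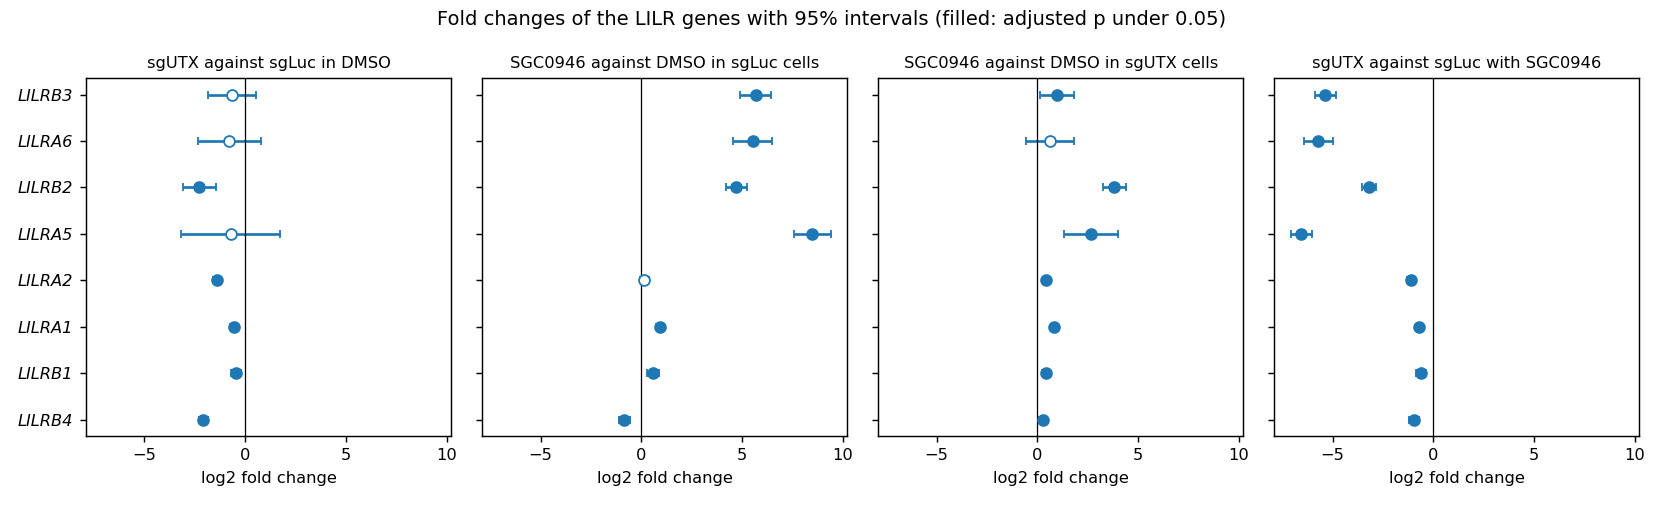
Log2 fold changes of the 8 LILR genes in 4 comparisons, with 95% intervals. Filled points passed an adjusted p under 0.05, and the wide intervals for LILRA5, LILRA6 and LILRB3 with DMSO go with 0 to 9 counts per library.

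The sgUTX guides gave the same calls against sgLuc although KDM6A RNA differed between them. With DMSO the same 5 members were lower with sgUTX_2 (32.2% of all genes lower) and with sgUTX_4 (31.2%), and with SGC0946 all 8 were lower with each (29.1% and 29%). LILRA5 with SGC0946, for example, had a log2 fold change of -6.99 with sgUTX_2 and of -6.14 with sgUTX_4. Compared directly, LILRB4 with DMSO was the 1 member that differed, higher with sgUTX_4 by 0.33 (adjusted p = 0.0398, 1.72% of all genes higher), and DESeq2 did not call it. With SGC0946 no member differed between guides by edgeR or DESeq2 (3.01% of all genes in either direction), and 2 had an unadjusted p under 0.05, LILRA2 (0.21) and LILRB2 (0.44), both higher with sgUTX_4. SGC0946 raised 5 members with each guide, where 14.1% and 13.9% of all genes rose. LILRA1, LILRA2, LILRB1 and LILRB2 were among the 5 with both. LILRB4 passed with sgUTX_2 (0.53, adjusted p = 2.37e-05) and had 0.02 with sgUTX_4, while LILRA5 passed with sgUTX_4 (3.87, adjusted p = 0.000444) and had 1.77 with sgUTX_2 (adjusted p = 0.0548). Whether these responses differ between guides was not tested, and the LILRA5 value for sgUTX_4 is measured against 2 counts in all.

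Counts were also summed over the 8 members. The sums were 414.6 and 424.0 CPM in sgLuc cells with DMSO, 144.9 to 168.9 CPM in sgUTX cells with DMSO, 588.4 and 610.6 CPM in sgLuc cells with SGC0946 and 211.5 to 240.3 CPM in sgUTX cells with SGC0946. The log2 change of the sum was -1.42 for sgUTX against sgLuc with DMSO, as for LILRA2 alone, and with SGC0946 it was 0.52 in sgLuc and 0.51 in sgUTX cells. LILRA2 made up 48.0% to 64.0% of the sum in each library. LILRB4 made up 25.7% and 26.4% of it in sgLuc cells with DMSO and 10.1% in both sgLuc libraries with SGC0946. The responses of the sum differed by -0.002 between sgUTX and sgLuc cells (edgeR, adjusted p = 0.993). The total level over the family thus does not show the differences of the responses of LILRA5, LILRA6, LILRB3 and LILRB4.

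**Figure D4:**
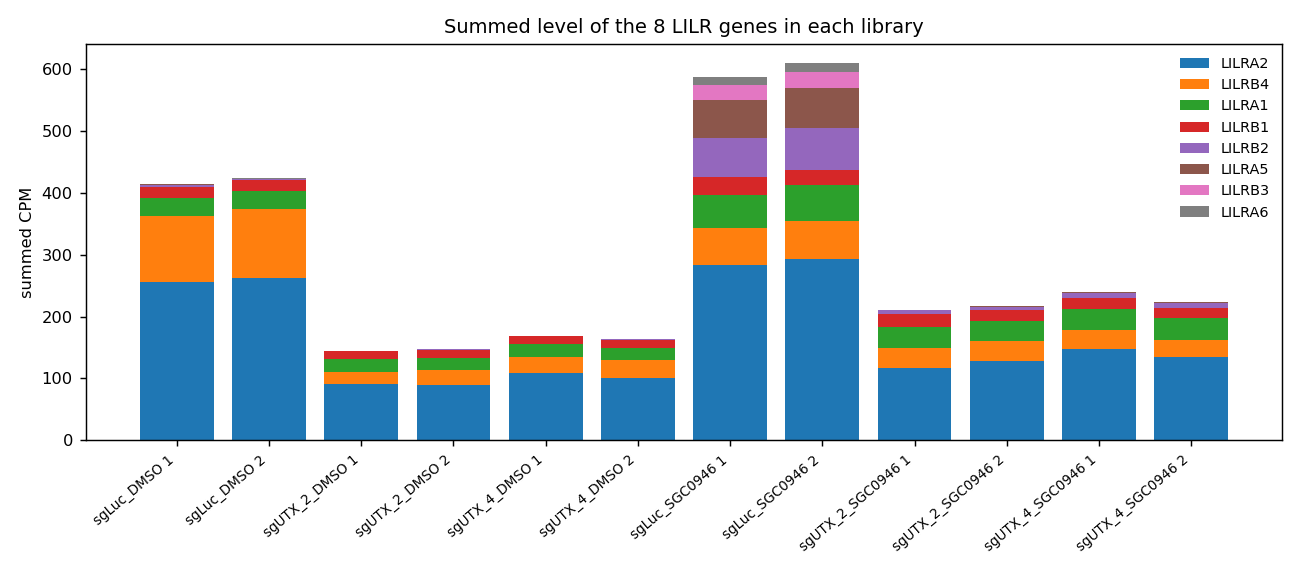
Stacked CPM of the 8 LILR genes in each library, from 0. LILRA2 is the tallest segment in each bar, and the segments of LILRB2, LILRA5, LILRB3 and LILRA6 are tall in the 2 sgLuc libraries with SGC0946, whose bars reach 588.4 and 610.6 CPM.

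Among the 8 members, the size of the response to SGC0946 in sgLuc cells followed the place of the genes. This pattern was noticed after the values were seen and was not tested. In GENCODE 29 (GRCh38) the members lie on chromosome 19 in a group on the minus strand and a group on the plus strand. The minus-strand group held LILRB3 (54216278 to 54223506), LILRA6 (54236592 to 54242791), LILRB2 (54273821 to 54281184) and LILRA5 (54307070 to 54313139). These 4 rose by 4.72 to 8.48 on the log2 scale, at least 26.3-fold. The plus-strand group held LILRA2 (54572920 to 54590287), LILRA1 (54593582 to 54602090), LILRB1 (54617158 to 54637528) and LILRB4 (54643889 to 54670359). Its 4 genes changed by -0.85 to 0.94, between 0.554 and 1.91 times the DMSO level. Low levels with DMSO were shared by the same 4 minus-strand genes. The pattern did not extend to LILRB5 and LILRA4, minus-strand LILR genes outside the set that lie in or beside this group. They did not reach the filter and had at most 3 and at most 2 counts in sgLuc cells with SGC0946. Other tested genes of the stretch from CNOT3 to NCR1, 16 in all, had a median of -0.26. Of these 3 were higher and 5 lower, near the 24.7% and 24.2% of all genes. On either side of the minus-strand group, RPS9, a ribosomal protein gene, had -0.48 and LAIR1, an inhibitory collagen receptor, had -0.53, both lower. AC245884.12, which lies within it, had 17 and 19 counts in sgLuc cells with SGC0946, 1 count in all in sgUTX cells with SGC0946 and 0 counts in every DMSO library. It was among the 3 called higher and passed the filter through the libraries in which it was high, so it had to differ there. These 3 neighbours were chosen for their place after their values were seen. In sgUTX cells the minus-strand genes had 0.62 to 3.82 and the plus-strand genes 0.27 to 0.80.

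**Figure D5:**
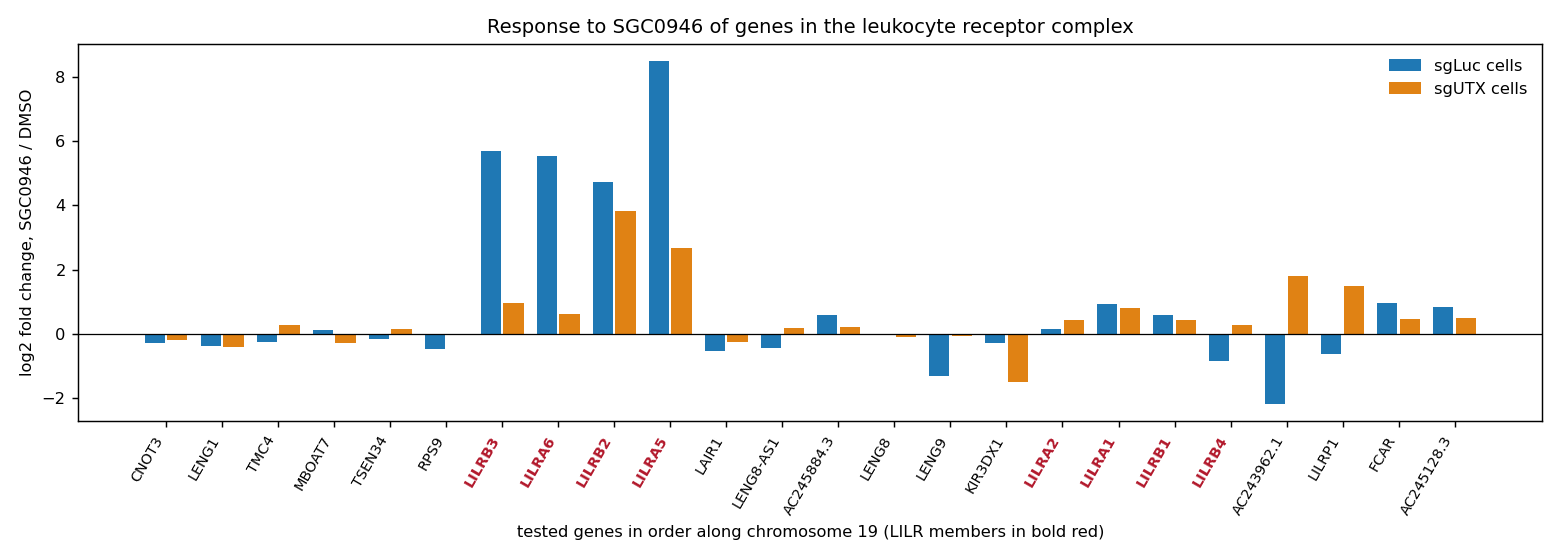
Log2 fold change with SGC0946 in sgLuc cells (blue) and sgUTX cells (orange) for tested genes in their order along the leukocyte receptor complex, members in bold red (AC245884.12, at 0 with DMSO, is left out). In sgLuc cells LILRB3, LILRA6, LILRB2 and LILRA5 stand between 4.72 and 8.48, with RPS9 and LAIR1 beside them below 0.

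RefSeq (GRCh38.p14) start windows were found for 7 members, LILRA6 excepted, and the parts outside annotated exons are shown for 3 that are alike, 5′ to 3′ on the gene's strand, with the longest run common to the 3 (22 bases) in capitals. They are LILRB2 at chr19:54281185-54281360 (minus strand), LILRA1 at chr19:54593382-54593581 and a start of LILRB1 at chr19:54630234-54630409 (both plus strand).
LILRB2: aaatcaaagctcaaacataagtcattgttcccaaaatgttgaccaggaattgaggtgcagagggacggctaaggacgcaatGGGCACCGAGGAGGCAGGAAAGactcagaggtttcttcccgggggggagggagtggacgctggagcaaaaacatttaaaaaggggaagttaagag
LILRA1: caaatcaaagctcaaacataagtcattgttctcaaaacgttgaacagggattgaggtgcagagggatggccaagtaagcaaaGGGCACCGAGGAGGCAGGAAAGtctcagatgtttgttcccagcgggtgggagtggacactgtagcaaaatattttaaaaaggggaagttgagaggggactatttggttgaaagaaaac
LILRB1: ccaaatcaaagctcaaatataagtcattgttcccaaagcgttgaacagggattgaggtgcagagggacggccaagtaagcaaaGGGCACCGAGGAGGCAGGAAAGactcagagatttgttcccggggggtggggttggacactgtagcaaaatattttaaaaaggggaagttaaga
LILRB2 was 88.0% identical to LILRA1 over 175 aligned bases and 89.1% identical to LILRB1 over 174. LILRB2, LILRA1 and LILRB1 all rose with SGC0946 in both kinds of cells and were lower in sgUTX cells with either treatment. Their log2 fold changes with SGC0946 in sgLuc cells were 4.72, 0.94 and 0.58, that of LILRB2 from 52 and 21 counts. The windows of LILRA5 (chr19:54313167-54313416) and LILRB3 (chr19:54223088-54223257), both on the minus strand, are shown because both genes had at most 9 counts in each DMSO library and at least 394 in the treated sgLuc libraries. GAGGAA, the core letters bound by the myeloid factor PU.1, is in capitals, on this strand as its complement TTCCTC.
LILRA5: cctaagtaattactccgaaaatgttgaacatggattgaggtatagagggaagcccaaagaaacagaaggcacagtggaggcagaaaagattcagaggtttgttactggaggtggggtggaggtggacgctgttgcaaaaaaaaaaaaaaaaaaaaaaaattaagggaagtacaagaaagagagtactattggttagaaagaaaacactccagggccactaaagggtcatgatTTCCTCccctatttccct
LILRB3: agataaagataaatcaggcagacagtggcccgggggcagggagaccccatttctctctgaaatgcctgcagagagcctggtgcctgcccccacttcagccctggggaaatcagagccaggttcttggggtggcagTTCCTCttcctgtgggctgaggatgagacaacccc
LILRA5 was 76.4% identical to LILRB2 over 161 bases and LILRB3 61.8% over 136. The LILRB3 stretch lies inside its annotated gene (54216278 to 54223506), and so does the LILRB1 stretch (54617158 to 54637528). The LILRB2 stretch lies just upstream of its gene (54273821 to 54281184). The 61.8% and the 89.1% thus compare unlike places relative to the annotated genes. They do not show how far the sequences upstream of these genes differ. The LILRB3 window shared a run of 14 bases with another LILRB2 window, inside the gene, and of 8 with the one shown. GAGGAA on either strand was found in 3 of the 13 member windows of 250 bases (LILRA5, LILRB3 and LILRB4) and in 23.6% of all 35116 RefSeq windows. TTNCNNAA, written for C/EBP factors, was found in 3 of 13 (LILRA5, LILRB1 and LILRB2) and in 33.2% of all. TGANTCA, written for AP-1, was found in 1 of 13 (LILRB1) and in 6.6% of all, and the repeat written for IRF factors in none of 13 and in 3.0% of all. These matches describe the letters of these windows only.

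Of the genes that transmit LILR signals, 16 were listed and all were tested. In sgUTX cells with DMSO 13 were lower and 2 higher (median -0.44 on the log2 scale, beside -0.01 over all genes), where 32.3% and 28.7% of all genes were. TYROBP, an adaptor with an activation motif, had -1.20 and INPP5D, the lipid phosphatase SHIP-1, had -0.79, while PTPN11 (SHP-2) was among the higher at 0.58. With SGC0946 in sgLuc cells 7 were higher and 4 lower, with a median of 0.17, beside 24.7% and 24.2% of all genes, the latter close to the share of lower genes in the list. FCER1G, the adaptor of the LILRA members, rose from 42.1 to 224.5 CPM on average, a log2 fold change of 2.41 (adjusted p = 6.59e-10), and the Src kinases FGR and LYN rose by 1.67 and 0.89. In sgUTX cells 5 were higher and 6 lower, beside 17.4% and 16.4% of all genes, and FCER1G went from 21.2 to 33.5 CPM. The difference of the responses was lower for 6 and higher for 3, beside 16.5% and 18.3% of all genes. For FCER1G it was -1.76 (adjusted p = 9.95e-07), the same direction as for LILRA5 and LILRA6.

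Of 12 listed ligands 9 were tested, among them HLA class I genes and B2M, their light chain. With DMSO 6 were lower and 1 higher in sgUTX cells, beside 32.3% and 28.7% of all genes, with log2 fold changes of -2.39 for BST2, known as the ligand of LILRA4, and -0.42 for HLA-C. SGC0946 raised 7 of 9 in sgUTX cells and lowered none (median 0.28 beside 0.00 over all genes, of which 17.4% rose). In sgLuc cells it raised 2 and lowered 2, HLA-B among the lower, near the 24.7% and 24.2% of all genes. The difference of the responses was higher for 5, beside 18.3% of all genes, and lower for none. HLA reads are subject to the same uncertainty between near-identical copies.

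Other receptors of the complex with immunoglobulin domains reached the filter in 4 of 15 cases. FCAR, the IgA receptor, rose with SGC0946 in sgLuc cells from 56.0 to 110.5 CPM and in sgUTX cells from 18.9 to 26.1 CPM. LAIR1 fell in both. LILRP1, a pseudogene next to the cluster, had 57 and 37 counts in sgLuc cells with DMSO and 1 to 11 in sgUTX cells, and its responses differed by 2.12 (adjusted p = 0.00802). LILRP2 had at most 14 counts, LILRA4 at most 4 and LILRB5 at most 3 in any library. Of 27 paired or inhibitory receptors of myeloid cells encoded elsewhere, 26 were tested. SGC0946 raised 23 of them in sgLuc cells (median 2.31) and 20 in sgUTX cells (median 1.24), lowering none, and with SGC0946 24 were lower in sgUTX cells. PILRA rose from 11.5 to 89.5 CPM and CLEC7A from 2.46 to 73.5 CPM in sgLuc cells. Of 11 tested monocyte and macrophage markers 10 rose and 1 fell in sgLuc cells, and 7 rose and 1 fell in sgUTX cells. Of 15 neutrophil markers 12 rose and 1 fell in sgLuc cells (median 4.21), and 13 rose and none fell in sgUTX cells (median 2.52). With SGC0946 8 of the 15 were lower and 1 higher in sgUTX than in sgLuc cells. Over all genes 24.7% rose in sgLuc cells, 17.4% rose in sgUTX cells and 29.3% were lower in sgUTX cells with SGC0946, the background for the markers and for the 26 receptors. Some of these receptors and markers were near 0 CPM except in treated sgLuc cells. A gene that passes the filter on low counts only through those libraries had to differ there, so these counts carry the same limit as LILRA6. These receptors and markers moved in the direction of most LILR genes, and their part in the LILR values was not tested.

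Among the 5 genes whose log2 profile over the 12 libraries was most like the mean profile of the LILR family, out of 13636 compared, were RNASE6, RAB11FIP1, GRN and ADD3 (Pearson r from 0.9932 to 0.9967, given as the measure of likeness; the libraries fall into the same 6 groups). The mean does not describe every member alike, since the r of LILRB4 with other members went from 0.308 (LILRA5) to 0.896 (LILRA2). GRN, which encodes the lysosomal protein progranulin, had mean levels of 411.5 CPM in sgLuc cells with DMSO, 194.8 CPM in sgUTX cells with DMSO, 1410 CPM in sgLuc cells with SGC0946 and 381.9 CPM in sgUTX cells with SGC0946. RNASE6, a secreted ribonuclease, had 3.65, 0.615, 47.2 and 2.34 CPM in the same order.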

How the data were processed

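RNA of 12 OCI-AML2 libraries was sequenced as pairs of 150 bases, per the labels' protocols. The values the authors deposited are unnormalized read counts for each gene. STAR 2.5.1b and hg19 are named, per the submitters' processing notes. All 58735 identifiers were found in GENCODE 29, which annotates GRCh38. The build behind the counts is therefore uncertain, and coordinates are those of GENCODE 29. Which program counted reads, and whether it used strand, is not given in the sources.

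The quasi-likelihood F-test of edgeR 4.0.16 (R 4.3.3) was run two-sided, with robust dispersions, TMM factors and the filterByExpr filter, and p-values were adjusted by Benjamini-Hochberg over 15060 genes and called under 0.05. All 12 libraries were fitted in 4 groups, with both sgUTX guides as replicates (8 residual degrees of freedom), and in 6 groups for single guides (6 degrees). DESeq2 1.42.0, other scalings, no filter, other designs and left-out libraries were alternatives. The fits were tested on simulated data. CPM are scaled by TMM factors. All members are named. Of the other lists, genes are named by smallest adjusted p among those with a mean of at least 1 CPM, at most 5 a comparison, and all other LILR genes found are named. The members and lists were chosen with earlier results of these data known. LILRA3 was not analysed here. Some genes of the lists are not reported here.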

Additional observations from a re-analysis of the deposited data

Results flagged for a closer look

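Of 16 groups of 4 sgUTX libraries, 2 held a library far from the other 3, where chance alone gives such a gap in about 5 of 100 groups. LILRA1 with SGC0946 was lowest in the second sgUTX_2 library, at 32.2 CPM beside 34.5, 34.7 and 34.7 CPM. LILRB1 with SGC0946 was highest in the first sgUTX_2 library, at 20.3 CPM beside 17.0, 16.8 and 16.6 CPM.

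For 4 members the response to SGC0946 differed between sgUTX and sgLuc cells by the interaction test of edgeR. The log2 difference, sgUTX minus sgLuc, was -5.81 for LILRA5, -4.91 for LILRA6, -4.70 for LILRB3 and 1.12 for LILRB4. The first 3 rose in sgLuc cells from at most 9 counts per library, and LILRB4 fell there and had a small rise in sgUTX cells. LILRA6 passed the filter on low counts only through the treated sgLuc libraries in which it was high.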

How the results depend on the processing

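Of 1056 values of single members under the alternatives, 1014 kept their call or lack of one, 25 lost the call and 17 gained it. No called value changed sign, and 12 values without a call did, all with a library left out, 11 of them between the guides and the other for LILRA6. The members counted as higher with sgUTX_4 than with sgUTX_2 in DMSO went from 1 to 0 with scaling by library size and with DESeq2, and lay between 0 and 1 with single libraries left out. With SGC0946 the same count, 0, lay between 0 and 1. Those counted as higher in the difference of the responses went from 1 to 2 with 6 groups, where LILRA2 (0.29) had an adjusted p of 0.00325, and lay between 1 and 2 with single libraries left out. LILRA2 in sgLuc cells passed for SGC0946 against DMSO with library size (adjusted p = 0.034), no filter (0.0485), 6 groups (0.0417) and only the groups compared (0.00505). LILRB3 in sgUTX cells had adjusted p-values of 0.0521 to 0.158 in the 9 fits that lost the call for SGC0946. Scaling by library size moved the median of all genes between sgUTX and sgLuc cells with DMSO from -0.01 to 0.26, and the share of calls that were higher from 47.1% to 66.7%. With SGC0946 these went from 0.01 to 0.20 and from 48.6% to 65%. The share of higher calls went from 50.6% to 60.9% for SGC0946 in sgLuc cells and from 52.6% to 40.6% for the difference of the responses. Replicate numbers did not pair the libraries, with correlations of -0.11 to 0.07 over 15 pairs of groups. With the replicate block, 9072 genes were called in place of 9188 for sgUTX against sgLuc with DMSO. Among the members the block ended 1 call, that of LILRB3 for SGC0946 in sgUTX cells (0.98, adjusted p = 0.0535). LILRA5, LILRA6 and LILRB3 held at most 23 counts outside the treated sgLuc libraries, which limits the precision of their folds.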
